A study of Mus musculus with 12 samples.

Results

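Newly made RNA of LPS-stimulated mouse macrophages was compared between a late and an early time of stimulation: 270 min of lipopolysaccharide (LPS, an outer membrane component of Gram-negative bacteria that is sensed through Toll-like receptor 4) against 45 min. The comparison uses 4 of the 12 arrays of the study. They are the 2 labelled as newly transcribed RNA at 270 min and the 2 at 45 min, paired by experiment number. The cells were macrophages grown from bone marrow of C3H/HeN mice, a strain with a functional Toll-like receptor 4. They were grown for 17 days, with IL-3, IL-6 and stem cell factor during expansion and L-cell conditioned medium as the source of M-CSF, the macrophage growth factor. Every culture received 200 µM 4-thiouridine, a uridine analogue, for the last 35 min, and the LPS cultures received 100 ng/ml LPS for 270 or 45 min. Unstimulated cultures carried the label as well and had no LPS. RNA that had taken up the label was biotinylated and captured on streptavidin beads, and is called nascent RNA here. It holds what was made, and not yet degraded, in the last 35 min of each culture. Total RNA of the same cultures was hybridised alongside, so that there were 6 groups of 2 arrays, 1 from each of 2 independent experiments. The labels give neither the age or sex of the mice nor whether marrow was pooled. Gene levels are log2 of the array intensity, read for 19938 genes, each by the brightest of its probe sets out of 35557 on the array.

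A macrophage that senses LPS activates NF-kB, MAP kinases and interferon regulatory factors within minutes. Primary response genes, such as the immediate early genes, need no new protein for their induction and are often shut off again quickly by their own products. Secondary response genes depend on proteins made in the first wave, among them interferon beta, which acts back on the macrophage through its receptor and STAT transcription factors to switch on interferon-stimulated genes. Labelled RNA reads synthesis in a short window, whereas total RNA also holds transcripts made before it.

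In nascent RNA 1946 genes were higher at 270 than at 45 min (9.76% of all genes tested) and 2593 were lower (13.0%), by limma at a Benjamini-Hochberg adjusted p below 0.05. Changes of at least 2-fold made up 801 of the rises and 1340 of the falls. Across genes, the replicate arrays had r = 0.9891 at 270 min and r = 0.9883 at 45 min. Without the 45 min array of experiment 2 only 1247 genes were called higher, and without that of experiment 1 only 1684 were called lower. The median change of all genes was 0.01 on the log2 scale. The 95th percentile of the 1027 genes whose symbols start with Olfr, olfactory receptors that a macrophage is not known to use, lay between 6.18 and 6.80 on the 12 arrays and served as a background level. Both groups lay under it for 8650 genes, 232 of them among the called, and no change is given for such a gene. Where only the dimmer group lay under it, the change of the measured levels is followed by a fold against the background level, written as "at least". List counts below are read against the shares of all genes. Those shares include the 8650 genes under background in both groups, of which 127 were called higher and 105 lower. Shares among the remaining genes are therefore higher. Values are log2 differences ± SE, 270 minus 45 min, with n = 2 arrays per group, and each is relative to the rest of its array. The SE draws on all 12 arrays and on a trend over genes (4 residual against 12.7 prior degrees of freedom). It is therefore not the spread of a gene between the 2 experiments.

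Macrophage identity was checked first. All 7 macrophage markers, among them the M-CSF receptor Csf1r, the scavenger receptor Cd68 and lysozyme Lyz2, were above background on all 4 arrays. Their summed level was 13.64 to 13.87 on the log2 scale at 270 min and 14.23 to 14.53 at 45 min. Of the 7, 5 were called lower, among them Csf1r, Cd68 and Lyz2, while Adgre1 (1.26) and Fcgr1 (1.85) were called higher. In the wider list of 23 macrophage identity genes, 1 lay under background in both groups. None of 11 neutrophil and granule markers and of 7 erythroid, platelet and progenitor markers was above background on all 4 arrays. Their summed levels were 9.28 on both arrays at 270 min against 9.20 to 9.49 at 45 min, and 8.88 to 8.89 at 270 min against 8.81 to 9.11 at 45 min. The neutrophil collagenase Mmp8 was called lower, with 5.64 and 5.65 at 270 min and 6.66 and 6.78 at 45 min (at least 1.01-fold). Of 8 B cell markers Ighm and Igll1 were above background, none was called, and the summed level was 9.20 to 9.37 at 270 min and 9.07 to 9.38 at 45 min. Of 8 dendritic cell markers Itgax and Ccr7 were above it, with a summed level of 10.28 to 10.58 at 270 min and 9.99 to 10.01 at 45 min. Itgax, the integrin CD11c, which macrophages can carry too, averaged 9.74 at 270 min and 8.79 at 45 min and rose by 0.95 ± 0.17. Zbtb46, a transcription factor of dendritic cells, was called lower, with 6.79 and 6.73 at 270 min and 7.52 and 7.45 at 45 min. Its difference of -0.72 became -0.53 without the 270 min array of experiment 2 and -0.52 without the 45 min array of experiment 1, not called in either case. Of 9 T and NK cell markers 2 were above it, and the summed level of the list, 10.35 to 10.44 at 270 min against 12.65 to 12.74 at 45 min, followed Il7r, an interleukin-7 receptor chain. Il7r read 9.77 and 9.87 at 270 min, against 12.55 and 12.63 at 45 min, while Cd3e averaged 6.91 at 270 min and 6.94 at 45 min. Of 10 mast cell and basophil markers Kit, Prss34 and Gata2 were above background throughout, and the summed level of the list was 9.74 to 10.19 at 270 min and 9.40 to 9.90 at 45 min. Kit, Fcer1a and Ms4a2 were called higher. Fcer1a was under background in both groups, and Ms4a2 read 5.56 and 6.81 at 270 min, against 4.93 and 5.58 at 45 min. Kit averaged 7.64 at 270 min and 7.07 at 45 min. The call of Kit was lost without either 270 min array (0.45 without experiment 1, 0.69 without experiment 2) and without the 45 min array of experiment 1 (0.38). Of 8 fibroblast and endothelial markers 3 were above background, with a summed level of 10.67 to 10.87 at 270 min and 9.97 to 10.52 at 45 min, and the endothelial growth factor receptor Kdr averaged 9.98 at 270 min and 8.85 at 45 min. The Kdr difference was 0.85 and not called without the 45 min array of experiment 1. In such bulk RNA, fewer cells of a type and less RNA per cell cannot be told apart. The part these markers play in the results below was not tested.

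**Figure D1:**
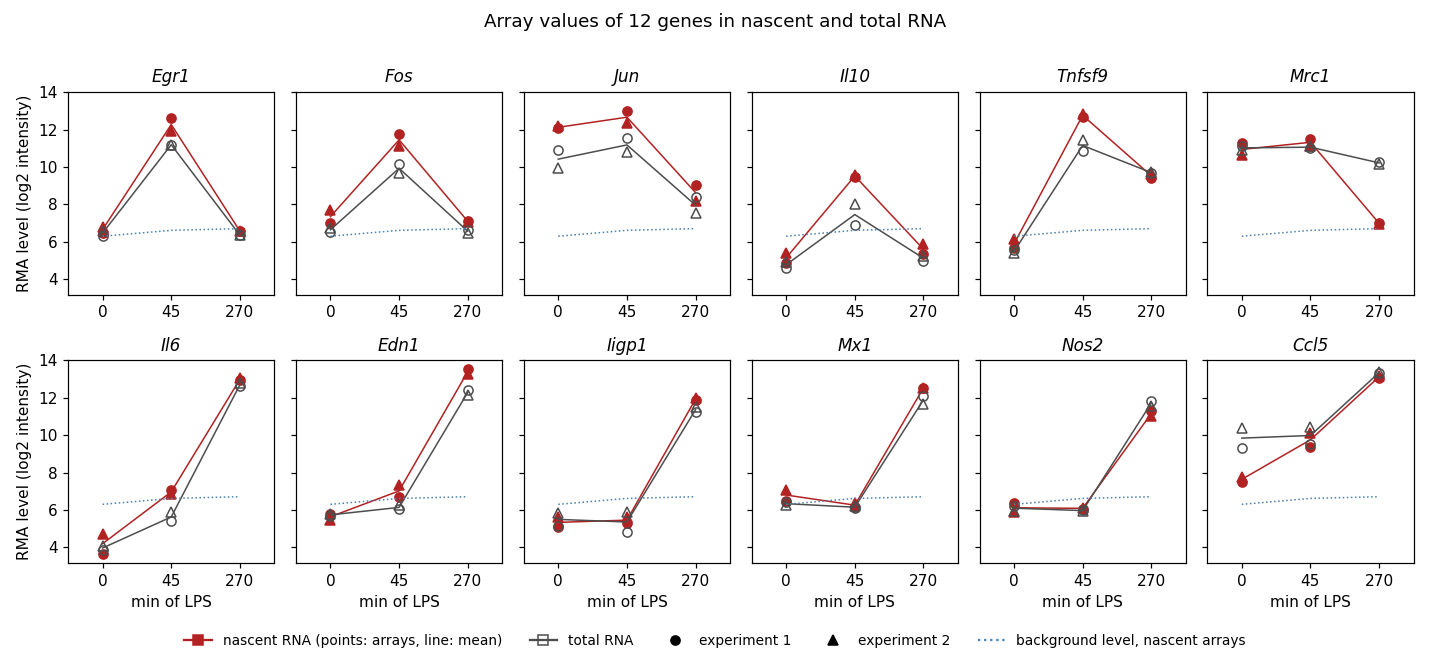
Levels (log2 array intensity, vertical axes) of 12 genes after 0, 45 and 270 min of LPS (horizontal axes) in nascent RNA (red, filled) and total RNA (grey, open), with 1 point per array and a line through the group means. The dotted line is the background level of the nascent arrays, averaged at each time. Egr1, Fos, Il10 and Tnfsf9 peaked at 45 min in nascent RNA, Jun and Mrc1 were at their lowest at 270 min, and the 6 genes of the lower row were highest at 270 min.

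Most immediate early genes fell. Of 24 immediate early transcription factors 18 were lower at 270 min, 1 was higher and 5 did not pass the test. Leaving out single arrays left 14 to 19 lower. Their median difference was -1.23, against 0.01 over all genes, of which 13.0% were lower. Egr1, a zinc finger factor induced through serum response factor, read 6.60 and 6.56 at 270 min, against 12.63 and 11.91 at 45 min. Its 270 min level was under background and close to the 6.66 of unstimulated nascent RNA. Egr1 fell by 5.69 ± 0.21 (at least 47.1-fold, limma adjusted p = 5.60e-12), the largest fall of all genes that met the naming rule. Fos, a subunit of the AP-1 transcription factor, read 7.10 and 7.09 at 270 min, against 11.77 and 11.12 at 45 min. It fell by 4.35 ± 0.25 (adjusted p = 6.77e-10), with an unstimulated mean of 7.35.

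Other members of the list ended below their unstimulated level. Jun, the partner of Fos in AP-1, read 9.04 and 8.21 at 270 min, against 12.97 and 12.34 at 45 min, and averaged 12.12 in unstimulated cells. The groups did not overlap, and Jun was lower at 270 min in both experiments than on any unstimulated or 45 min nascent array. It fell by 4.03 ± 0.19 against 45 min (adjusted p = 5.59e-11). Egr2, a relative of Egr1, read 9.90 and 9.19 at 270 min, against 13.22 and 12.79 at 45 min, with an unstimulated mean of 10.68. It fell by 3.45 ± 0.20. Klf10, a TGF-beta inducible Krüppel-like repressor, fell by 3.53 ± 0.24. The exception was Nr4a3, an orphan nuclear receptor, with 8.22 and 9.17 at 270 min and 6.81 and 7.06 at 45 min. It rose by 1.76 ± 0.24 (adjusted p = 1.73e-05).

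The immediate early genes that are not transcription factors moved the same way: 14 of 20 were lower, 0 higher and 6 not called, with a median of -1.29, and 11 to 15 were lower when single arrays were left out. Btg2, an antiproliferative factor, read 10.01 and 9.61 at 270 min, against 12.85 and 12.73 at 45 min, and fell by 2.98 ± 0.25 to near its unstimulated mean of 9.86. Ier3, a survival factor of the NF-kB response, fell by 2.85 ± 0.21, and Gem, a small GTP-binding protein, fell by 2.99 ± 0.19. Of 10 dual specificity phosphatases, which switch off MAP kinases, 7 were lower and 1 higher (median -1.39). Dusp1, which acts on p38 and JNK, read 10.65 and 10.42 at 270 min, against 13.79 and 13.41 at 45 min. It fell by 3.07 ± 0.17 (adjusted p = 4.47e-10), with an unstimulated mean of 10.95. Dusp16, a JNK phosphatase, was the member that rose, by 1.39 ± 0.19.

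Promoters of 2 of the immediate early genes with the largest falls are shown because most members of that group fell. They are RefSeq sequences of GRCm38.p6, from 250 bases before to 50 bases after the annotated start, 5′ to 3′ on the gene's strand. The Fos window is chr12:85473640-85473939 on the plus strand. Capitals mark a match to the NF-kB site at position -214 and a TATA box (TATAAA) at -33, counted from the start site. The Egr2 window is chr10:67535249-67535548 on the plus strand, and is 1 of 5 promoters listed for that gene. Its capitals mark a pair of overlapping matches to the NF-kB site, at -117 and -116.
Fos: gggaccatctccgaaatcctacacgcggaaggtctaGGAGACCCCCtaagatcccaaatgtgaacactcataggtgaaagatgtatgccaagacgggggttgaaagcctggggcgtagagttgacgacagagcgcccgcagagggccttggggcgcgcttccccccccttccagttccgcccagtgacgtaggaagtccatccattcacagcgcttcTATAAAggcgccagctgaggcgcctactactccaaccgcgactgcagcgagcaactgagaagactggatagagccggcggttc
Egr2: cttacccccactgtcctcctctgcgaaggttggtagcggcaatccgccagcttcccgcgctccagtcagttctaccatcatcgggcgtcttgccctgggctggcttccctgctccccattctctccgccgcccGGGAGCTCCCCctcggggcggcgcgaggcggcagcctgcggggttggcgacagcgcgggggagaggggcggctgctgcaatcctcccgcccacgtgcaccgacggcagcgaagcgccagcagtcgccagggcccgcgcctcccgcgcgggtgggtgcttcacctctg
The window of Jun, the other gene chosen by the rule, held none of the 6 motifs searched. No match says only that these letters are not in this window.

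NF-kB genes moved in both directions. Of 19 NF-kB subunits and inhibitors 4 were higher (21.1%) and 8 lower (42.1%, median -0.35). There were 4 lower without the 45 min array of experiment 1, and 4 also without the 270 min array of experiment 2. There was 1 higher without the 45 min array of experiment 2, and there were 2 without the 270 min array of experiment 1. Bcl3, a nuclear IkB protein, read 8.40 and 8.27 at 270 min, against 10.90 and 10.07 at 45 min, and fell by 2.15 ± 0.20. Nfkbid, another nuclear IkB protein, fell by 2.36 ± 0.25. Nfkbib, a cytoplasmic inhibitor, fell by 1.39 ± 0.25 and the subunit Rela fell by 1.30 ± 0.22. Birc2, a ubiquitin ligase of TNF receptor complexes, rose by 1.28 ± 0.18.

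Of 18 mRNA decay factors 3 were higher (16.7%) and 4 lower (22.2%, median -0.05), against 9.76% and 13.0% of all genes. None of the 18 lay under background in both groups, as 8650 of all 19938 genes did. Leaving out single arrays left 2 to 3 higher and 3 to 4 lower. Zfp36l1, which binds AU-rich elements and recruits deadenylases, read 6.28 and 6.25 at 270 min, against 10.88 and 10.27 at 45 min. It fell by 4.31 ± 0.19 (at least 14.6-fold) and averaged 9.94 in unstimulated cells, so its nascent RNA was high before and at 45 min and under background at 270 min. Its relative Zfp36 (tristetraprolin), which destabilises Tnf mRNA, fell by 1.96 ± 0.21, and Zfp36l2 fell by 1.03 ± 0.15. The decapping enzyme Dcp2 rose, with 11.14 and 11.07 at 270 min and 8.20 and 8.16 at 45 min, a difference of 2.92 ± 0.17. The exonuclease Xrn1, which degrades decapped mRNA, rose by 1.57 ± 0.16.

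**Figure D2:**
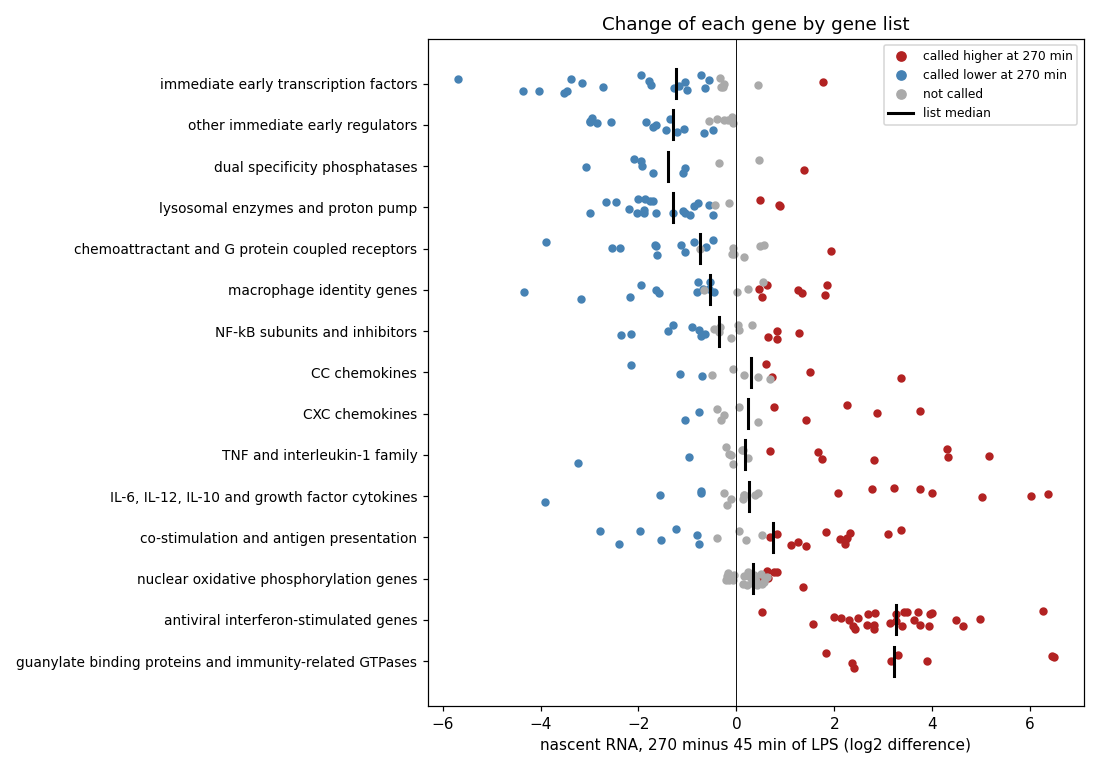
Log2 difference in nascent RNA, 270 minus 45 min of LPS (horizontal axis), of each measured member of 15 gene lists (rows), with 1 point per gene. Red and blue points were called higher and lower at 270 min, grey points were not called, and the bars are list medians. Immediate early and lysosomal genes lie mostly left of 0, and all members of the lowest rows lie to the right of it.

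Cytokine genes moved in both directions. Of 20 genes of the IL-6, IL-12, IL-10 and growth factor list 8 were higher and 4 lower (median 0.27), and without the 270 min array of experiment 2 there were 2 lower. Il6, a pyrogenic and acute phase cytokine, read 12.93 and 13.04 at 270 min, against 7.07 and 6.88 at 45 min. It rose by 6.01 ± 0.23 (adjusted p = 6.86e-12). Edn1, the precursor of the vasoconstrictor endothelin-1, read 13.53 and 13.24 at 270 min, against 6.71 and 7.33 at 45 min, and rose by 6.37 ± 0.22. Il12a, the p35 subunit of interleukin-12, rose by 5.02 ± 0.19 (at least 25.1-fold) and Inhba, a subunit of activin, by 4.00 ± 0.21. The gene of the shared p40 subunit, Il12b, rose by 3.75 ± 0.22.

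Il10, the anti-inflammatory cytokine, went the other way. It read 5.35 and 5.87 at 270 min, against 9.48 and 9.55 at 45 min, and fell by 3.90 ± 0.21 (at least 6.99-fold, adjusted p = 2.73e-10). It averaged 5.15 in unstimulated cells, so it was above background at 45 min alone of the 3 times. Of 16 genes of the TNF and interleukin-1 families 7 were higher (43.8%) and 2 lower (12.5%, median 0.18). Tnfsf10, the death receptor ligand TRAIL, read 10.48 and 10.30 at 270 min, against 5.35 and 5.12 at 45 min, and rose by 5.15 ± 0.19 (at least 13.6-fold). Il18, an inflammasome-activated inducer of interferon gamma, rose by 4.33 ± 0.18 (at least 8.26-fold), and Tnfsf15 by 4.31 ± 0.19. Tnfsf9, which co-stimulates T cells through 4-1BB, fell by 3.24 ± 0.19, with 9.44 and 9.61 at 270 min and 12.69 and 12.84 at 45 min. Tnf itself read 13.59 and 13.36 at 270 min and 13.85 and 13.53 at 45 min. Its difference of -0.22 ± 0.15 did not pass the test (adjusted p = 0.405).

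Among 12 CXC chemokines 5 were higher (41.7%) and 2 lower (16.7%, median 0.24), of which Cxcl5 was called higher with both groups under background. Cxcl3, a neutrophil attractant, read 11.75 and 11.58 at 270 min, against 7.83 and 7.99 at 45 min, and rose by 3.75 ± 0.18. The ligands of CXCR3, the receptor of activated T cells, rose: Cxcl11 by 2.88 ± 0.27 (at least 5.1-fold), Cxcl9 by 2.26 ± 0.20 (at least 4.04-fold) and Cxcl10 by 1.42 ± 0.18. Cxcl1, another neutrophil attractant, fell by 1.04 ± 0.16, with 11.77 and 11.39 at 270 min and 12.82 and 12.42 at 45 min. Cxcl14, with 6.43 and 6.77 at 270 min and 7.28 and 7.44 at 45 min, was the other that fell. Only 1 of these falls was called without the 270 min array of experiment 1 or without either 45 min array.

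Of 12 CC chemokines 4 were higher and 3 lower (median 0.30), and without the 45 min array of experiment 1 only 1 was higher. Ccl5, which attracts T cells and monocytes, was that member. It read 13.06 and 13.18 at 270 min, against 9.39 and 10.11 at 45 min, and rose by 3.37 ± 0.21. Ccl22, a ligand of CCR4, read 7.77 and 7.78 at 270 min, against 5.71 and 6.82 at 45 min. Its rise of 1.51 ± 0.28 became 0.92, not called, without the 45 min array of experiment 1. Ccl2, the main monocyte attractant, fell by 1.16 ± 0.22, with 10.94 and 10.37 at 270 min and 11.73 and 11.91 at 45 min. Ccl6, a chemokine of resting macrophages, fell by 2.15 ± 0.14. Of the 12 CC chemokines 33.3% were higher and 25.0% lower, against 9.76% and 13.0% of all genes.

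Interferon-stimulated genes rose throughout the lists tested. Of 29 antiviral interferon-stimulated genes measured, of 32 in the list, 29 were higher, with a median difference of 3.26, and of 8 guanylate binding proteins and immunity-related GTPases measured, of 16, 8 were higher, with a median of 3.22. Iigp1, an immunity-related GTPase that attacks vacuoles of intracellular parasites, read 11.89 and 11.97 at 270 min, against 5.30 and 5.62 at 45 min. It rose by 6.48 ± 0.20 (at least 39.8-fold, adjusted p = 8.16e-13). Mx1, a dynamin-like antiviral GTPase, read 12.53 and 12.51 at 270 min, against 6.16 and 6.36 at 45 min, and rose by 6.26 ± 0.19 (at least 59.6-fold). Gbp4, a guanylate binding protein, rose by 6.45 ± 0.19 (at least 62.9-fold). In unstimulated nascent RNA Iigp1 and Gbp4 averaged 5.34 and 5.71, both under background.

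Other members rose by less. Cmpk2, a mitochondrial nucleotide kinase, read 12.94 and 12.88 at 270 min, against 7.72 and 8.17 at 45 min, and rose by 4.97 ± 0.22. Ifit3, of the family that binds foreign RNA, rose by 4.63 ± 0.33, the antibody receptor and ubiquitin ligase Trim21 by 4.48 ± 0.22 and Rsad2 (viperin) by 3.99 ± 0.25. The smallest rise of the antiviral list was that of the ubiquitin ligase Trim25, by 0.53 ± 0.15. Genes outside the lists led the ranking too. Ifi214, of the Ifi200 family of DNA sensors and related proteins, had the largest rise of all genes that met the naming rule. It read 10.85 and 11.16 at 270 min, against 4.24 and 4.33 at 45 min, and rose by 6.72 ± 0.21 (at least 20.9-fold). Ifi209 of the same family rose by 5.40 ± 0.21, Slfn1, of the Schlafen family, by 5.32 ± 0.25 and Trim30d by 5.24 ± 0.23 (at least 29.8-fold). AW112010, annotated as an expressed sequence, rose by 6.08 ± 0.20 (at least 59.8-fold), and Ms4a4c, a membrane-spanning 4-domain gene, by 5.42 ± 0.22. Members of such families resemble each other in sequence and may share signal between probe sets.

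The inducer and the transcription factors of this system were not all late. Ifnb1, the interferon beta gene, read 5.32 and 5.38 at 270 min, against 7.52 and 7.44 at 45 min, and averaged 5.28 in unstimulated cells. It fell by 2.13 ± 0.18 (at least 1.70-fold, adjusted p = 5.13e-08). Of the 11 interferon and interferon regulatory factor genes 3 were higher and 4 lower (median 0.01), and without the 45 min array of experiment 1 there were 2 lower. The shares of these 11 were 27.3% higher and 36.4% lower. Irf7, which amplifies type I interferon genes, read 11.46 and 11.20 at 270 min, against 8.05 and 8.43 at 45 min, and rose by 3.09 ± 0.30. Irf4, a factor of alternative activation, fell by 2.23 ± 0.21. Irf3, which acts without induction, fell by 1.12 ± 0.22, with a difference of -0.77 and no call when the 45 min array of experiment 1 was left out. Of 14 STAT and SOCS genes 7 were higher (50.0%) and 2 lower (14.3%, median 0.54). Stat2, part of the interferon-activated factor ISGF3, rose by 2.83 ± 0.21. Of the SOCS-type inhibitors of cytokine receptors, Cish rose by 2.55 ± 0.19 and Socs1 by 1.65 ± 0.25.

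Promoters of the interferon-stimulated genes with the largest rises and a RefSeq entry are shown because a known element, the interferon-stimulated response element, could be searched in them. It was searched as GAAANNGAAA on both strands. The Ifit3 window is chr19:34583279-34583578 on the plus strand. Its capitals mark the element on the opposite strand at -156 and -122, and an AP-1 site (TGANTCA) at -56. The Trim21 window is chr7:102565433-102565732 on the minus strand, with a pair of overlapping elements at 14 and 20 bases after the start site.
Ifit3: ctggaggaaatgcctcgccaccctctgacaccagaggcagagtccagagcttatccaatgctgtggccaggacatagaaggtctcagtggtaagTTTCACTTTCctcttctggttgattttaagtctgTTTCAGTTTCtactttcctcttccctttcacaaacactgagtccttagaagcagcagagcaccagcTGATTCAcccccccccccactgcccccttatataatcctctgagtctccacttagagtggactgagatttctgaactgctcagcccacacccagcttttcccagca
Trim21: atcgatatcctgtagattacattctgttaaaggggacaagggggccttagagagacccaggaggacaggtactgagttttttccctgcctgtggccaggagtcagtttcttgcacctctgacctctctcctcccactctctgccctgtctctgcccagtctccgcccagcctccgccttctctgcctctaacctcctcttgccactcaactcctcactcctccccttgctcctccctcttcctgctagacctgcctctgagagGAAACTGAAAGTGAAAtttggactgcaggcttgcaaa
The Cmpk2 window held none of the 6 motifs.

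Among promoters of genes called higher by at least 2-fold and above background, 10.3% of 774 held the response element, against 2.17% of 1427 for the genes lower in the same way and 3.27% of 19177 for all genes tested. The whole RefSeq list has 32851 promoters, and 3.44% of them held it. Of 29 promoters of the antiviral and GTPase lists 14 did (48.3%). The CArG box, bound by serum response factor and searched on both strands, was in 1.16% of promoters of the higher genes and 2.10% of those of the lower genes, against 1.41% of all tested and 1.63% of the whole list. It was in 5 of 49 promoters of immediate early genes (10.2%). The NF-kB site, on both strands, was in 9.43% of promoters of the higher and 11.6% of those of the lower genes, against 9.55% of all tested and 8.46% of the whole list. AP-1 sites on both strands were in 7.75% of promoters of the higher genes, 6.66% of the lower and 6.90% of all tested, and 7.81% of the whole list. Cyclic AMP response elements (TGACGTCA, both strands) were in 2.71% of the higher, 3.08% of the lower, 2.37% of all tested and 1.79% of the whole list. TATA boxes on the gene strand were in 5.30% of the higher and 5.26% of the lower, against 7.31% of all tested and 8.32% of the whole list. In the 49 immediate early promoters NF-kB sites were in 16.3%, TATA boxes in 14.3% and AP-1 sites in 2.04%. Cyclic AMP and interferon-stimulated response elements were each in 6.12% of them. Of the 29 antiviral and GTPase promoters 20.7% held an NF-kB site, 20.7% an AP-1 site and 3.45% a TATA box. None of them held a CArG box or a cyclic AMP response element. The median CpG content, observed over expected, was 0.291 in promoters of the antiviral and GTPase lists, 0.770 in those of the immediate early genes and 0.612 over all tested. In promoters of the higher and lower genes it was 0.699 and 0.722. Those 2 sets passed a level filter and the genes tested did not, so their shares differ in more than the direction of change. These shares describe letters in the windows and are not evidence of binding.

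**Figure D3:**
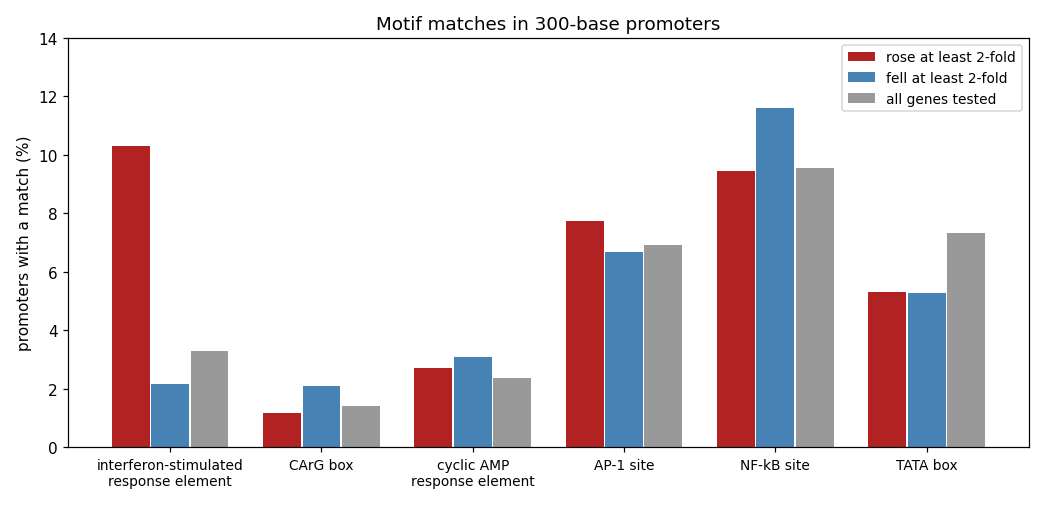
Share of 300-base RefSeq promoters (vertical axis, %) with at least 1 match to each of 6 motifs (horizontal axis), for genes with nascent RNA called up (red) or down (blue) 2-fold or more at 270 against 45 min and for all genes tested (grey). The red and blue sets passed a level filter and the grey set did not. The response element is in 10.3% of the red, 2.17% of the blue and 3.27% of the grey set.

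Of 22 inflammatory effector enzymes and secreted proteins 13 were higher (59.1%) and 2 lower (9.09%, median 0.67). Leaving out single arrays left 9 to 11 higher, and 11 were higher with no replicate block. Nos2, the inducible nitric oxide synthase, read 11.29 and 11.01 at 270 min, against 6.08 and 6.10 at 45 min, and rose by 5.06 ± 0.18 (at least 23.1-fold). Cp, the copper-carrying ferroxidase ceruloplasmin, rose by 5.05 ± 0.18 (at least 22-fold) and Cfb, complement factor B, by 3.69 ± 0.21. Ptx3, a soluble pattern recognition protein, rose by 2.89 ± 0.20 (at least 6.29-fold). Arg2, a mitochondrial arginase, fell by 3.47 ± 0.20, with 6.88 and 6.52 at 270 min and 10.45 and 9.88 at 45 min. Thbs1, which encodes thrombospondin-1, was the other that fell, with 6.42 and 6.67 at 270 min and 7.62 and 7.73 at 45 min.

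Of 21 Toll-like receptor and signalling genes 8 were higher (38.1%) and 2 lower (9.52%, median 0.39). There were 5 higher without the 45 min array of experiment 2. Tlr3, the receptor of double-stranded RNA, read 10.14 and 10.23 at 270 min, against 6.65 and 6.56 at 45 min, and rose by 3.58 ± 0.19. Tlr1 rose by 2.00 ± 0.19 and Tlr6 by 1.46 ± 0.18, both partners of Tlr2 in lipopeptide sensing. Tlr4, the receptor of LPS, averaged 9.85 at both times and was 11.22 in unstimulated nascent RNA. The 2 lower genes were its co-receptor Cd14 and Tlr2. Neither was called without the 45 min array of experiment 1, nor without the 270 min array of experiment 2. Cd14 fell by 1.15 ± 0.25, with differences of -0.91 and -0.65 without these arrays. Of 10 inflammasome genes 4 were higher and 3 lower (median 0.06). Gsdmd, the pore protein of pyroptosis, rose by 2.04 ± 0.22, the DNA sensor Aim2 by 1.96 ± 0.18 and the protease Casp1 by 1.62 ± 0.17. Nlrc4, a sensor adaptor of bacterial proteins, fell by 1.44 ± 0.19 (at least 1.82-fold).

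Antigen presentation genes moved in both directions. Of 24 co-stimulation and antigen presentation genes 13 were higher (54.2%) and 7 lower (29.2%, median 0.75). Of the class I pathway, Tap1, a subunit of the peptide transporter, read 10.80 and 10.51 at 270 min, against 7.14 and 7.42 at 45 min, and rose by 3.37 ± 0.22. The immunoproteasome subunit Psmb8 rose by 3.10 ± 0.24, Psmb10 by 2.25 ± 0.33 and Psmb9 by 2.22 ± 0.21. Of class II, H2-Aa, the alpha chain of I-A, read 7.95 and 7.52 at 270 min, against 10.63 and 10.42 at 45 min, and fell by 2.79 ± 0.18. Cd74, the invariant chain, fell by 2.40 ± 0.18, H2-Ab1 fell by 1.96 ± 0.23 and H2-Eb1 fell by 1.24 ± 0.18. H2-Ea, the alpha chain of I-E, stood outside the list and fell by 3.50 ± 0.21. In unstimulated nascent RNA H2-Aa averaged 8.77 and Cd74 9.68, both between their levels at the other times. Slamf1, a co-stimulatory receptor, rose by 2.32 ± 0.18 (at least 2.20-fold).

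Receptors and genes of the resting macrophage fell more often than they rose. Of 23 macrophage identity genes 7 were higher (30.4%) and 12 lower (52.2%, median -0.54). There were 6 lower without the 45 min array of experiment 1, and 4 higher without either array of experiment 2. Mrc1, the mannose receptor, read 7.03 and 6.95 at 270 min, against 11.50 and 11.14 at 45 min, and fell by 4.33 ± 0.17 (adjusted p = 6.83e-12). The scavenger receptor Cd36 fell by 3.18 ± 0.16, Cd68 fell by 2.18 ± 0.14 and Mertk, a receptor for apoptotic cells, fell by 1.95 ± 0.17. Fcgr1, the high-affinity IgG receptor, rose by 1.85 ± 0.22. Of 19 chemoattractant and G protein coupled receptors 11 were lower (57.9%) and 1 higher (5.26%, median -0.75). Cxcr4, the receptor of CXCL12, read 8.75 and 8.56 at 270 min, against 12.75 and 12.33 at 45 min, and fell by 3.89 ± 0.16. Cnr2, a cannabinoid receptor, fell by 2.54 ± 0.28 (at least 2.28-fold) and the acid sensor Gpr65 fell by 2.38 ± 0.19. P2ry14, a receptor of UDP-sugars, rose by 1.93 ± 0.15.

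Several of the 12 largest falls were also genes with high nascent RNA before LPS. Cd28, a co-stimulatory receptor best known in T cells, read 5.85 and 5.78 at 270 min, against 10.68 and 10.78 at 45 min, and averaged 10.81 in unstimulated cells. It fell by 4.92 ± 0.17 (at least 16.3-fold). Dio2, a deiodinase that activates thyroid hormone, fell by 4.74 ± 0.17 (at least 22.6-fold), and the sodium-proton exchanger Slc9a9 fell by 4.54 ± 0.18 (at least 12.5-fold). Arhgap18, a GTPase activating protein, fell by 4.62 ± 0.23 (at least 10.5-fold), Mtss1, an actin and membrane binding protein, fell by 4.40 ± 0.17 (at least 16.9-fold) and Rcbtb2 fell by 4.28 ± 0.20 (at least 11.2-fold). These 6 genes averaged 9.84 to 11.06 in unstimulated nascent RNA. Ndrg1 and Hilpda, both known as hypoxia-induced genes, averaged 7.67 and 6.56 at 270 min, against 11.98 and 10.77 at 45 min, and 10.58 and 8.16 in unstimulated cells. Ndrg1 fell by 4.31 ± 0.17 and Hilpda fell by 4.21 ± 0.21 (at least 16.7-fold).

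Most lysosomal genes fell. Of 25 lysosomal enzymes and proton pump subunits 20 were lower, 3 higher and 2 not called, with a median of -1.30. Ctsk, cathepsin K, a collagen-degrading protease, read 8.12 and 7.57 at 270 min, against 11.13 and 10.56 at 45 min, and fell by 3.00 ± 0.16. Ctsd, the aspartic protease cathepsin D, fell by 2.19 ± 0.13 and Lipa, the acid lipase that frees cholesterol, fell by 2.04 ± 0.14. Among proton pump subunits Atp6v0d2 fell by 2.66 ± 0.15 and Atp6v1a fell by 2.45 ± 0.15. The 3 higher were Ctsc, which activates granule proteases, by 0.89 ± 0.14, the cholesterol carrier Npc2 by 0.86 ± 0.15 and Lamp2 by 0.49 ± 0.15. Leaving out single arrays left 18 to 20 lower.

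Genes of iron handling that were named from the antioxidant and internal standard lists fell, but no list of iron genes was tested. The ferroxidase gene Cp, named above from another list, rose by 5.05. Slc40a1, the iron exporter ferroportin, read 5.20 and 5.71 at 270 min, against 8.79 and 8.59 at 45 min, and fell by 3.23 ± 0.26 (at least 3.94-fold). Tfrc, the transferrin receptor, fell by 3.57 ± 0.15, the haem-degrading enzyme Hmox1 fell by 2.41 ± 0.23 and ferritin light chain Ftl1 fell by 1.53 ± 0.17. Of 18 Nrf2 and antioxidant genes 10 were lower and 4 higher (median -0.57), with 2 higher when the 270 min array of experiment 1 or the second experiment's 45 min array was left out. Gpx1, a glutathione peroxidase, fell by 2.56 ± 0.25 and the cystine importer Slc7a11 rose by 1.94 ± 0.17. Of 12 targets of the sterol-sensing receptor LXR 7 were lower and 0 higher (median -0.51). Abca1, a cholesterol exporter, fell by 1.79 ± 0.14. There were 2 lower without the 45 min array of experiment 1, and 4 without either 270 min array. Of 17 sterol biosynthesis genes 4 were higher (23.5%) and 2 lower (11.8%, median 0.21), against 9.76% and 13.0% of all genes. None of the 17 lay under background in both groups. Ch25h, which makes 25-hydroxycholesterol, rose by 2.65 ± 0.27 and Insig1, which retains the sterol sensor in the endoplasmic reticulum, fell by 1.48 ± 0.20. Leaving out the 270 min array of experiment 1 or either 45 min array left 2 sterol genes higher, and 1 was lower without experiment 2 at 270 min or without experiment 1 at 45 min.

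Energy and ribosomal genes were read against the shares of all genes, 9.76% higher and 13.0% lower. Those shares include genes under background in both groups. Such genes numbered 0 in the oxidative phosphorylation list, 0 in the ribosomal list and 1 in the glycolysis list. Of 31 nuclear oxidative phosphorylation genes 6 were higher (19.4%) and 0 lower (median 0.34), and leaving out any one array except the 270 min array of experiment 2 left 2 or 3 higher. Ndufs3, a complex I subunit, read 9.45 and 9.45 at 270 min, against 8.11 and 8.05 at 45 min, and rose by 1.37 ± 0.17. Its unstimulated mean was 9.70, so the 45 min arrays were the low ones. Of 18 glycolysis and HIF genes 2 were higher (11.1%) and 4 lower (22.2%, median -0.21). There was 1 lower without experiment 2 at 270 min or without experiment 1 at 45 min, and there were 2 without experiment 2 at 45 min. There was 1 higher without either array of experiment 2. The pyruvate kinase gene Pkm fell by 1.21 ± 0.16. Of 20 cytosolic ribosomal protein genes 2 were higher (10.0%) and 3 lower (15.0%, median -0.10), near the shares of all genes, and Rplp0, of the ribosomal stalk, fell by 1.73 ± 0.25. There was 1 ribosomal gene called in each direction without the 45 min array of experiment 1, 1 higher without experiment 1 at 270 min and 1 lower without experiment 2 at 270 min.

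Of 29 DNA replication and mitosis genes 3 were higher and 7 lower (median -0.20), with 3 lower when experiment 1 was left out at 45 min and 4 when it was left out at 270 min. The shares of the list were 10.3% higher and 24.1% lower, against 9.76% and 13.0% of all genes. Ccnd2, cyclin D2, had the largest change of that list. It read 12.04 and 11.82 at 270 min, against 6.68 and 7.03 at 45 min, and rose by 5.08 ± 0.19. The thymidylate synthase gene Tyms rose by 1.80 ± 0.17 (at least 2.13-fold) and the helicase subunit Mcm6 by 1.40 ± 0.20, whereas Mcm4 fell by 1.39 ± 0.21. Of 15 p53 targets 7 were lower (46.7%) and 1 higher (6.67%, median -0.34), and the stress sensor Sesn1 fell by 3.09 ± 0.22. The 1 higher was the nuclease gene Aen, whose call was lost without the 270 min array of experiment 1 (0.48) and without either 45 min array (0.79 and 0.86). Of 22 unfolded protein and integrated stress response genes 10 were lower (45.5%) and 1 higher (4.55%, median -0.30). Leaving out the 45 min array of experiment 1 gave 5 lower, and leaving out the 270 min array of experiment 2 gave 6. The count of higher was 0 without the 270 min array of experiment 1 or the second experiment's 45 min array. Dnajb9, a chaperone of the endoplasmic reticulum, fell by 2.20 ± 0.19 and Ppp1r15a (GADD34), which restores translation, fell by 2.01 ± 0.22. Of 30 basal transcription and Mediator genes 2 were higher (6.67%) and 5 lower (16.7%, median -0.14), near the 9.76% and 13.0% of all genes. None of the 30 lay under background in both groups. Polr2a, the largest subunit of RNA polymerase II, was among the lower and fell by 1.16 ± 0.17. Leaving out the 270 min array of experiment 1 gave 3 lower, as did leaving out the second experiment's 45 min array, and 1 was higher when any array but the first experiment's 270 min array was left out.

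Among 9 microRNA genes 5 were higher and 0 lower (median 0.60), with 3 higher when the 45 min array of experiment 1 was left out. Their mature 5p sequences are printed because those of the 5 genes fall into different seed families. They are RefSeq sequences of GRCm38.p6, with the seed, bases 2 to 8, in capitals. The coordinates are those of the 5p sequences. That of Mir155 lies at chr16:84714143-84714165 (plus strand) and that of Mir146 at chr11:43374435-43374456 (minus strand). Mir99b, Mirlet7e and Mir125a form a cluster on the plus strand of chromosome 17, at chr17:17830194-17830215, chr17:17830366-17830387 and chr17:17830817-17830840.
mmu-miR-155-5p: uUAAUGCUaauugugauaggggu
mmu-miR-146a-5p: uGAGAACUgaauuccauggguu
mmu-miR-146b-5p: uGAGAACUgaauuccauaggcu
mmu-miR-99b-5p: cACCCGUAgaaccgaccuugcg
mmu-let-7e-5p: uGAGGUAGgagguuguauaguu
mmu-miR-125a-5p: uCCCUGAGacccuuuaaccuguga
The 5p sequences of the 5 genes that rose have 5 different seeds. The sequence of miR-146b, which has the seed of miR-146a, is added because its gene, Mir146b, was under background in both groups. Mir155, whose product targets inhibitors of inflammatory signalling, read 12.76 and 13.08 at 270 min, against 11.40 and 12.05 at 45 min, and rose by 1.20 ± 0.24. Its difference was 0.95 and not called without the 45 min array of experiment 1 (adjusted p = 0.0732). Mir146, whose product targets Irak1 and Traf6, rose by 1.22 ± 0.21, with 10.39 and 10.20 at 270 min and 9.28 and 8.86 at 45 min. In the cluster Mirlet7e rose by 1.53 ± 0.25, Mir125a by 1.36 ± 0.20 and Mir99b by 0.60 ± 0.19, and the call of Mir99b was lost when any one of the 4 arrays was left out (0.48 to 0.72). Whether these probe sets read the primary transcript, the hairpin or the mature form was not tested.

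The same 2 times were also compared in total RNA, and the nascent change minus the total change was tested per culture. The SE of that difference came from a trend over genes and does not measure a gene's own spread between experiments. In total RNA 1903 genes were higher (9.54%) and 3228 lower (16.2%) at 270 than at 45 min. The nascent change lay above the total change for 825 genes (4.14%) and below it for 677 (3.40%). These last counts depended on single cultures. There were 292 above and 290 below without the 270 min culture of experiment 1, and 157 and 323 without the second experiment's. There were 1275 above and 1235 below without the 45 min culture of experiment 1, and 278 and 645 without that of experiment 2. Of the CC chemokines 10 of 12 had a nascent change below the total change, and of the inflammatory effectors 11 of 22. Ccl12, a monocyte attractant, read 8.50 and 8.94 in nascent RNA at 270 min, against 9.06 and 9.37 at 45 min. In total RNA it read 10.26 and 10.08 at 270 min, against 6.65 and 7.60 at 45 min. Its nascent change was -0.50 ± 0.24, not called, and its total change 3.05, a called difference of -3.55 ± 0.30. Il23a, the p19 subunit of interleukin-23, changed by 0.38 in nascent RNA, not called, and by 3.24 in total RNA.

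Some genes that fell in nascent RNA fell by less in total RNA. Mrc1 read 10.29 and 10.16 in total RNA at 270 min, against 11.02 and 11.10 at 45 min, a change of -0.84. Its nascent minus total change was -3.50 ± 0.25. Of the 25 lysosomal genes 14 had a nascent change below the total one. For Ctsd the changes were -2.19 in nascent and -0.40 in total RNA. The class II genes H2-Aa, Cd74 and H2-Ab1 had total RNA changes of -0.31, -0.01 and 0.03, of which none was called. Tfrc changed by -3.57 in nascent RNA and by -1.03 in total RNA. For Egr1 and Fos the total RNA changes were -4.84 and -3.36, and for Jun -3.22, all called. Cxcr4 fell by 3.89 in nascent RNA and by 3.90 in total RNA.

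In the other direction, Cd72, an inhibitory receptor best known in B cells, read 10.22 and 10.56 in nascent RNA at 270 min, against 7.34 and 7.72 at 45 min. In total RNA it read 10.49 and 10.42 at 270 min, against 10.81 and 11.04 at 45 min. Its nascent change lay 3.33 ± 0.26 above the total change. Ly6e, an interferon-stimulated surface protein, rose by 2.57 ± 0.19 in nascent RNA with a total change of 0.00. Of the oxidative phosphorylation genes 11 of 31 had a nascent change above the total change and 0 below, and 6 of these 11 fell in total RNA. The median change of the antiviral list was 3.26 in nascent and 2.82 in total RNA.

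**Figure D4:**
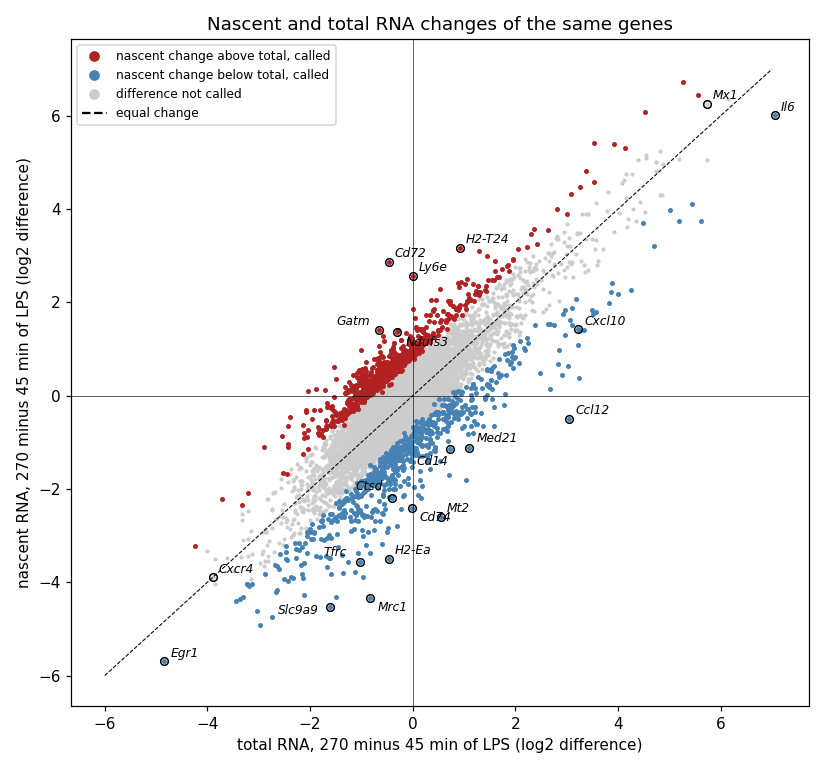
Change of each gene above background in at least 1 of the nascent groups, 270 minus 45 min of LPS, in nascent RNA (vertical axis, log2 difference) and in total RNA (horizontal axis, log2 difference), with 1 point per gene and selected genes named. Red and blue points had a nascent change called above or below the total change, and the dashed line marks equal changes. Mrc1 and H2-Ea lie far below the line and Cd72 and Ly6e far above it.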

How the data were processed

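Nascent and total RNA of 6 cultures was read on Affymetrix Mouse Gene ST arrays. The authors deposited linear intensity values that, per the submitters' processing notes, came from RMA in Affymetrix Expression Console. Versions and the scope of normalisation were not given in the sources used here. RMA is meant to remove shifts common to an array, but the deposited arrays still differed in scale. Their interquartile range over genes ran from 2.24 to 3.02 on the log2 scale. On the total 270 min arrays it was 2.73 in experiment 1 and 2.32 in experiment 2. The deposited intensities were taken to log2. Of 35557 probe sets 21789 had 1 gene symbol, and the brightest over 12 arrays was kept per symbol (19938 genes).

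In R 4.3.3, limma 3.58.1 (eBayes with a trend) was fitted to all 12 arrays, with a mean per group. The experiment was a block, separate for nascent and total arrays (residual degrees of freedom 4, prior 12.7). The labels state independent experiments, and deviations of same-numbered 270 and 45 min nascent arrays correlated at 0.321. The nascent minus total difference was fitted per culture with that block (residual degrees of freedom 2). Its prior degrees of freedom were infinite, so the spread came from the trend over genes and not from each gene's own replicates. P values were adjusted over all genes. The fits were also run on simulated data that followed the fitted model with independent noise. Such a run checks the code and cannot show whether the model suits these arrays. Python 3.11.15, numpy 2.4.6, pandas 2.3.3 and matplotlib 3.10.9 made the tables and figures. The 2 arrays per group limit the precision.

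Genes, lists and the background level were chosen with earlier results of these data known. Named are the 12 largest called rises and falls of the same sign in both experiments whose higher group lies above background and the median gene, up to 5 such members per list, and the 6 largest differences from total RNA in each direction. Promoters follow the 3 largest changes with an entry outside chromosome 18 in the immediate early and in the interferon-stimulated lists. Named after their values were seen were Nr4a3, Dusp16, Tnf, Il12b, Il23a, Cxcl5, Cxcl14, Thbs1, Tlr2, Tlr4, Psmb9, Psmb10, H2-Ab1, H2-Eb1, Ctsc, Npc2, Lamp2, Trim25, Actb, Mki67 and the markers Ccr7, Prss34, Gata2, Fcer1a and Ms4a2. Alternatives were other blocks, array subsets, quantile scaling, a level filter, probe set means, no trend and leaving out each array.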

Additional observations from a re-analysis of the deposited data

Results flagged for a closer look

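For the following genes the change between 270 and 45 min differed between nascent and total RNA by the test of the difference per culture, at an adjusted p below 0.05. The nascent change lay above the total change by 3.33 for Cd72, 2.58 for Ly6e and 2.24 for H2-T24, a class I-like gene. It lay above by 2.13 for Tifab and 2.02 for Echs1, a fatty acid oxidation enzyme, where the nascent changes of 0.10 and 0.14 were not called and total RNA changed by -2.04 and -1.88. It lay below the total change for Ccl12 (-3.55), Mrc1 (-3.50), H2-Ea (-3.03), Slc9a9 (-2.92) and Tceal9 (-2.91).

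Over all genes tested, 61 had called changes in both fractions that ran in opposite directions, with a called difference per culture: 38 were higher in nascent and lower in total RNA, and 23 lower in nascent and higher in total RNA. Of the named genes 6 were among them. Gatm, the first enzyme of creatine synthesis, rose by 1.41 in nascent RNA and fell by 0.66 in total RNA, a difference of 2.07. The complex I gene Ndufb5 rose by 0.82 in nascent RNA and fell by 0.57 in total RNA (1.39), and the ribosomal protein gene Rps4x rose by 0.73 and fell by 0.55 (1.28). Mt2, a metallothionein, read 8.22 and 9.29 in nascent RNA at 270 min, against 10.99 and 11.69 at 45 min, and its total RNA change was 0.55 (difference -3.13). The Mediator subunit Med21 fell by 1.13 in nascent RNA and rose by 1.09 in total RNA (-2.22). Cd14 fell by 1.15 and rose by 0.72 (-1.86). The nascent call of Ndufb5 was lost without the 270 min array of experiment 1 (0.69), and that of Rps4x without the same array (0.57) and without the 45 min array of experiment 1 (0.63).

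Probe sets with no entry in the annotation were left out of the comparisons above. Of 12147 such probe sets 1761 were higher (14.5%) and 620 lower (5.10%) at 270 than at 45 min in nascent RNA. For 318 of those called, both groups were under background, and 287 of these were called higher. Of the genes tested 9.76% were higher and 13.0% lower.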

How the results depend on the processing

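The counts of 1946 genes higher and 2593 lower became 1344 and 2001 with no replicate block, and the other planned settings gave 1676 to 2723 higher and 2314 to 3273 lower. Leaving out single nascent arrays gave 1247 to 1351 higher and 1684 to 2182 lower. The counts for the difference from total RNA, 825 above and 677 below, became 281 and 358 with no replicate block. There were 507 above in one fit of all 12 arrays and 527 above with quantile scaling within each fraction, and leaving out single cultures gave 157 to 1275 above and 290 to 1235 below. In the one fit 459 lay below, and with quantile scaling within each fraction 562 did. The causes were not tested. No result changed its sign. Of 182 named genes 152 kept their call status under all alternatives. Changes of genes near background have the least signal over it. The unstimulated nascent arrays did not share the experiments' deviations (correlations of -0.03 and -0.05 with the 270 and 45 min arrays), and a fit of the 4 nascent arrays at 45 and 270 min alone gave 2723 higher and 3273 lower.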

Other observations

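Gene classes chosen by their names were counted as well. Of 347 genes with Zfp symbols, most of them zinc finger genes, 43 were higher (12.4%) and 42 lower (12.1%) at 270 than at 45 min (median 0.03), near the 9.76% and 13.0% of all genes. Of 51 small nucleolar RNA genes 10 were higher (19.6%) and 5 lower (9.8%, median 0.22). Of 1027 olfactory receptor genes 13 were higher (1.27%) and 5 lower (0.487%, median 0.10), 12 of these with both groups under background. Of 10 genes often used as internal standards 3 were lower: the transferrin receptor Tfrc fell by 3.57 ± 0.15, the lysosomal glucuronidase Gusb fell by 1.70 ± 0.17 and the prolyl isomerase Ppia fell by 0.50 ± 0.13. The call of Ppia was lost without the 270 min array of experiment 2 (-0.41) and without the 45 min array of experiment 1 (-0.44). Actb changed by 0.27, which did not pass.

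The proliferation marker Mki67 read 9.84 and 9.32 at 270 min, against 10.69 and 10.51 at 45 min, and averaged 6.11 in unstimulated nascent RNA. It was picked after its values were seen. In its list, DNA replication and mitosis, 19 of 29 genes were not called between 270 and 45 min. For 9 of the 29 both groups lay under background. Whether the cells proliferated was not tested.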
